A study of Mus musculus with 8 samples.

Results

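The small heat shock proteins and the UNC45 myosin chaperones were followed in mouse heart outflow tracts that carried or lacked Mef2c in the anterior heart field. The group held 9 genes of the 33495 in the deposited table, 7 small heat shock genes (Hspb1, Hspb2, Hspb3, Hspb6, Hspb7, Hspb8 and Cryab) and the pair Unc45a and Unc45b. They were taken from the table by symbol, and each symbol matched 1 row. RNA was sequenced from 4 mutant samples with a conditional knockout of Mef2c in the anterior heart field and from 4 wild-type samples, all outflow tracts of hearts on a CD-1 background. The anterior heart field is a progenitor pool that adds muscle to the right ventricle and the outflow tract, while Mef2c codes for a transcription factor of the MADS-box family that activates muscle genes. The sources used here do not state the stage, how many embryos made up a sample, the driver of recombination, or whether wild types carried a driver. Nor do the labels say that samples came from separate litters, so the p-values cover the spread among these samples, some of which may be technical. Sequencing used a pair of lanes, with replicates 1 and 2 of both groups in lane 1 and replicates 3 and 4 in lane 2.

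Total counts ran from 7138732 to 11012246 per library. Mef2c itself had 1150 to 1423 reads in mutant and 728 to 1207 in wild type over the whole gene, which is not limited to the deleted part. The authors' deposited table lists -3.30 as the log2 ratio, mutant over wild type, of its most changed exon. Cardiomyocyte markers, led by the cardiac actin Actc1, were abundant in every library, with a summed level of 8815 to 12877 CPM (reads relative to the scaled size of the library) in mutant and 8287 to 13392 in wild type, while 5 skeletal muscle markers summed to at most 0.825 CPM in any library. Of these Myod1, Myf5 and Pax7 had 0 reads in every library, and Myog and Ckm had 0 to 5 reads. The summed level of 4 Y-linked genes was 0.999 CPM in mutant library 1 and 0.410 CPM in wild-type library 4, against 195 to 242 CPM in the others. Wild-type library 2 and mutant library 4 stood highest in a list of 8 chamber myocardium genes, and the members' values are given with and without them.

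Small heat shock proteins share an alpha-crystallin domain and hold unfolding proteins in a soluble state without using ATP, handing them on to the Hsp70 machinery. Several are concentrated in heart and skeletal muscle, where they sit on Z-discs, desmin and filamin and protect the contractile lattice from mechanical and oxidative stress. UNC45 proteins bind the myosin motor domain together with Hsp90 and are needed for myosin to fold, with Unc45b the striated muscle form and Unc45a the general form.

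Levels are compared between genes as CPM per kb of exon, since longer transcripts give more reads. In wild type Cryab, which encodes alpha-B-crystallin, was the most abundant member at 283 CPM per kb ± 59.0 (SD, n = 4), above the range of every other member. Hspb7, the cardiovascular small heat shock protein, followed at 103 ± 16.3 CPM per kb, Hspb1, the general stress protein Hsp25, at 91.1 ± 11.9, and Hspb2, a partner of the myotonic dystrophy kinase, at 69.6 ± 19.9. The ranges of Hspb7 and Hspb1 overlapped, as did those of Hspb1 and Hspb2. A lower tier held Unc45b at 29.3 ± 5.80, Hspb8 at 27.9 ± 7.35 and Hspb3 at 20.4 ± 9.25 CPM per kb, each with a range that overlapped the next. Hspb6, at 3.24 ± 0.0631, and Unc45a, at 3.20 ± 0.661 CPM per kb, were the scarcest, and their ranges overlapped each other but not that of Hspb3. Among the 14757 tested genes Cryab ranked 209 by wild-type level per length, Hspb7 613, Hspb1 713 and Hspb2 965, while Hspb6 ranked 10686 and Unc45a 10724. In mutant the first 4 places were the same, and Hspb3 stood at 8.77 ± 3.72 CPM per kb, with a range that no longer overlapped that of Hspb8 or Unc45b.

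**Figure D1:**
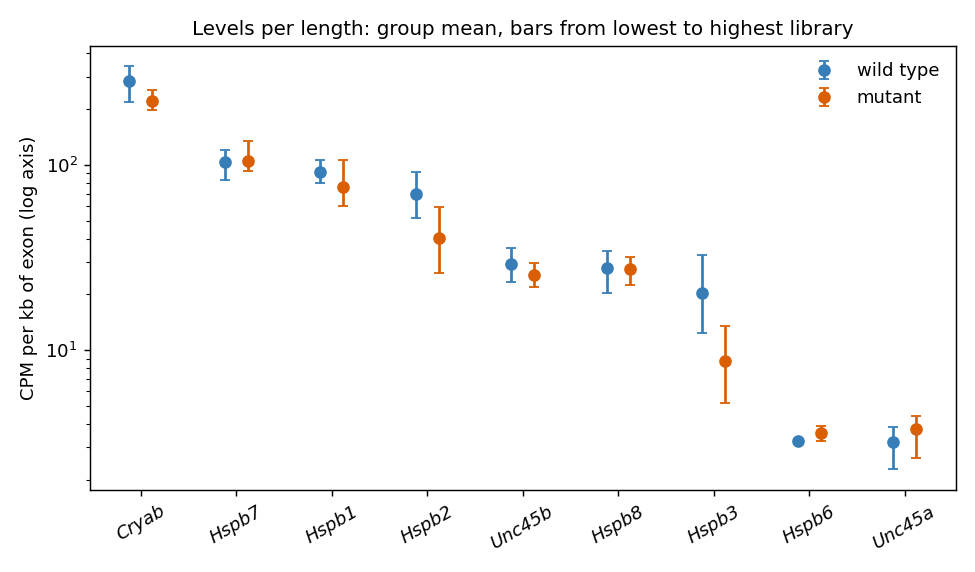
Levels of the 9 genes in CPM per kb of exon on a log axis, with points for the mean of 4 libraries and bars from the lowest to the highest library, wild type in blue and mutant in orange. Cryab at 283 CPM per kb in wild type stands above all others, and Hspb6 and Unc45a lie near 3.

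The comparison of mutant with wild type asked whether these chaperone transcripts differ when Mef2c is missing from the anterior heart field. All 9 genes passed the filter on low counts and none passed the test: 0 of 9 had an adjusted p under 0.05 by edgeR's quasi-likelihood test, where 1.5% of all tested genes did (0.942% lower and 0.562% higher). Those were 139 lower and 83 higher genes, or 122 and 109 with library size alone as scaling. At an unadjusted p under 0.05 there were 3 of 9, all lower in mutant, where 11.4% of all tested genes passed. These were Hspb3, Hspb2 and Cryab. DESeq2 called 1 of 9, Hspb3, where it called 2.52% of all genes, and limma-voom and limma-trend called 0. In 0 of 9 were the groups free of overlap, against 6.72% of all genes (3.27% lower and 3.44% higher in mutant). The median log2 fold change of the 9 was -0.20, beside -0.0059 over all tested genes, with 6 values below 0 and 3 above. In bulk samples fewer cells of a type and less RNA per cell cannot be told apart.

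**Figure D2:**
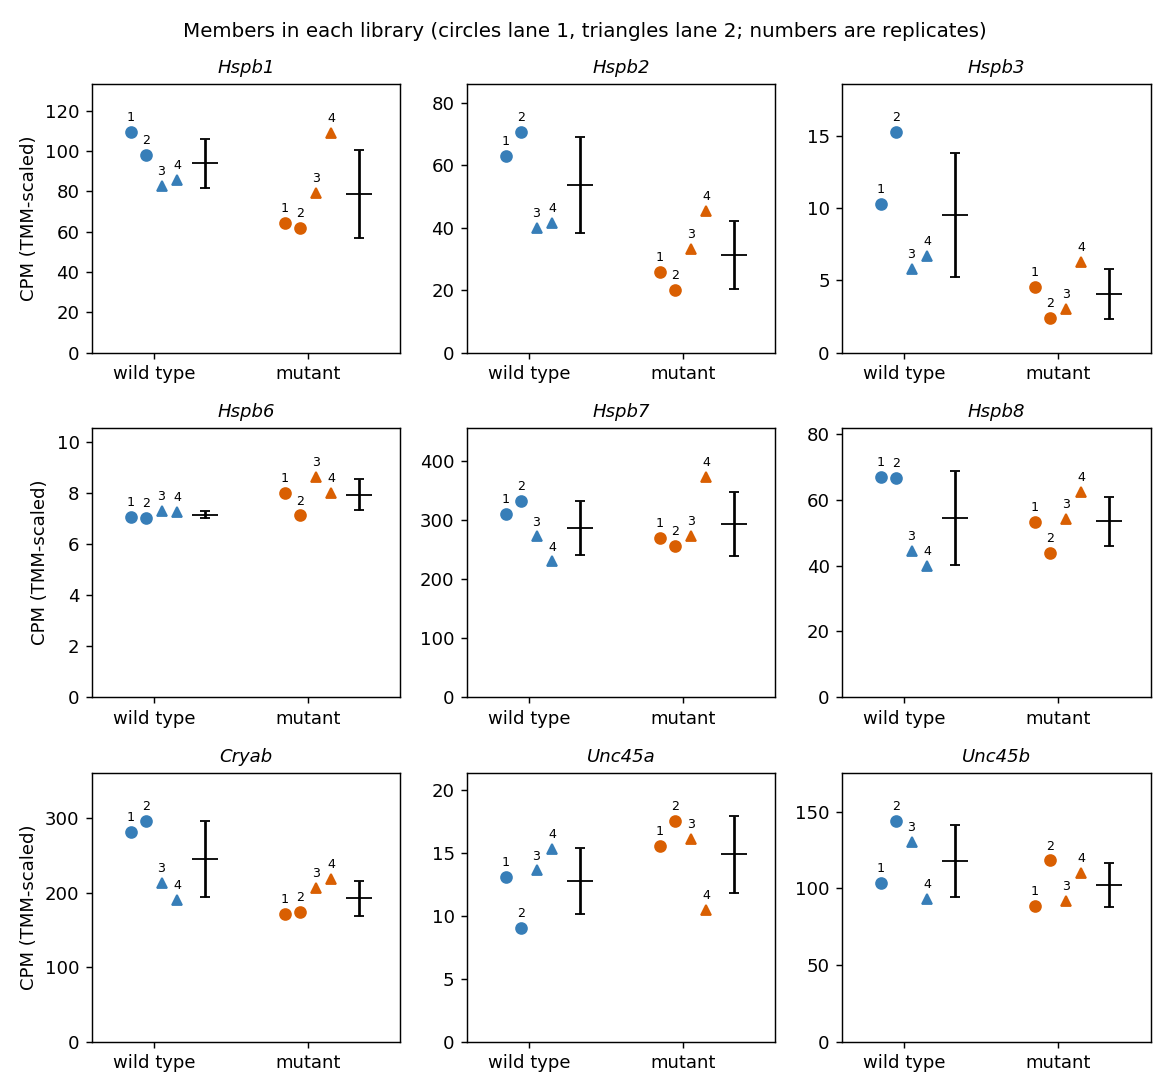
CPM with TMM scaling for each gene and library, circles for lane 1 and triangles for lane 2, numbered by replicate, with the mean and SD of 4 libraries as a bar at the right of each group. For Hspb2 and Hspb3, 3 of 4 mutant libraries lie below all wild-type libraries, and mutant library 4 lies within the wild-type range.

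Hspb3 and Hspb2 encode small heat shock proteins of heart and skeletal muscle that assemble with each other. Hspb3 (ENSMUSG00000051456, chromosome 13, 114453236 to 114453700, minus strand, mm9) was counted at 41, 19, 31 and 63 reads in the mutants, in replicate order, and at 111, 111, 42 and 49 reads in the wild types. In CPM it stood at 4.55, 2.42, 3.04 and 6.29 in mutant and at 10.3, 15.3, 5.78 and 6.69 in wild type. Mutant library 4 lay between wild-type libraries 3 and 4, the other mutant libraries lay below all wild types, and wild-type libraries 1 and 2 were the highest. The log2 fold change was -1.21 ± 0.354 (SE), with a 95% interval of -1.98 to -0.44, and did not pass (adjusted p = 0.155, edgeR). It passed by DESeq2 (adjusted p = 0.0380), and the adjusted p over the 22 alternatives ran from 0.0159 to 0.864.

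The bases before the RefSeq start sites of Hspb3, Hspb1 and Hspb6 are shown because heat shock, TATA or MEF2 motifs were found in them. RefSeq promoters on GRCm38.p6 were at hand for 7 of the 9 genes at 8 start sites, and Hspb2 and Cryab had no entry. Each line gives the 250 bases before the start, 5′ to 3′ on the gene's strand, with matches in capitals. The Hspb3 stretch is chr13:113663677-113663926 (minus strand), that of Hspb1 chr5:135887669-135887918 (plus strand) and that of the second Hspb6 start chr7:30553051-30553300 (plus strand).
Hspb3: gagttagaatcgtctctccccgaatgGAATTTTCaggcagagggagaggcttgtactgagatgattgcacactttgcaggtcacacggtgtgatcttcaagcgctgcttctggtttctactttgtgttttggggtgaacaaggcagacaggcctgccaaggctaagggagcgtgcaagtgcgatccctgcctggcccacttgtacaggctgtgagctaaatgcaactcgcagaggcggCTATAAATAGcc
Hspb1: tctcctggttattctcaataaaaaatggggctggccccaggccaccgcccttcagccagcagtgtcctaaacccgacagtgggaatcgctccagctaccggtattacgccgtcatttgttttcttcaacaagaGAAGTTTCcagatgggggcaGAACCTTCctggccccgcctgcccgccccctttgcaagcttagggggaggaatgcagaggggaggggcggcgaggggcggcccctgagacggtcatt
Hspb6: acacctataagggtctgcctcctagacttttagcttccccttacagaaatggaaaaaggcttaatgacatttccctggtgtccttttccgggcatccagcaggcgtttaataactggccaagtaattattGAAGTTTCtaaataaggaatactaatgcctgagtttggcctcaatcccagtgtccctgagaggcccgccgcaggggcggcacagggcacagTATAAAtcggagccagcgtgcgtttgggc

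Both strands were searched for the heat shock element core, as GAANNTTC or TTCNNGAA, the TATA box TATAAA, the MEF2 motif, the CArG box and the E box CAGCTG. The Hspb3 stretch held 1 MEF2 motif that begins 12 bases before the start and overlaps the TATAAA there, and 1 GAANNTTC. The MEF2 motif was present in 2.92% and TATAAA in 12.4% of 32851 promoter stretches of this length. Hspb1 held 2 GAANNTTC, at 117 and 97 bases before the start, and Hspb6 held 1 of them and 1 TATAAA at its second start. The stretches of Hspb7, Hspb8, Unc45a, Unc45b and the first Hspb6 start held none of the motifs. No stretch of any member held TTCNNGAA, the CArG box or CAGCTG. GAANNTTC was present in 6.69% of all stretches, TTCNNGAA in 7.17%, the CArG box in 1.47% and CAGCTG in 13%. These are matches of letters and do not show binding.

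Hspb2 (ENSMUSG00000038086, chromosome 9, 50559183 to 50560398, minus strand, mm9) and Cryab (ENSMUSG00000032060, chromosome 9, 50561098 to 50564735, plus strand, mm9) lie head to head with 699 bases between them in the deposited table. Hspb2 stood at 26.0, 20.2, 33.2 and 45.5 CPM in the mutants and at 63.1, 70.7, 39.9 and 41.7 CPM in the wild types. Again mutant library 4 alone of the mutants reached into the wild-type range, and wild-type libraries 1 and 2 were the highest. Its log2 fold change was -0.78 ± 0.267 (SE; 95% interval -1.38 to -0.18) and did not pass (adjusted p = 0.283, edgeR, with 0.00120 to 0.972 over the 22 alternatives).

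Cryab, whose protein binds desmin and titin in muscle and also forms part of the lens, stood at 172, 174, 207 and 219 CPM in mutant and at 281, 296, 214 and 191 in wild type. The mutant libraries of lane 1 lay below all wild-type libraries, while those of lane 2 lay within the wild-type range. Mutant over wild type gave -0.35 ± 0.144 on the log2 scale (SE; 95% interval -0.66 to -0.04; adjusted p = 0.382, edgeR). The ratio of Cryab to Hspb2 within each library does not depend on scaling. Its log2 value was 2.71, 3.09, 2.63 and 2.26 in mutant and 2.15, 2.06, 2.41 and 2.19 in wild type, a difference of 0.47 that did not pass (exact permutation p = 0.0571, two-sided, and 0.114 adjusted over 2 ratios). In 3 of 4 mutant libraries the ratio was above all wild types, and the smallest p that 70 arrangements allow is 0.0286.

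Hspb1 (ENSMUSG00000004951, chromosome 5, 136363789 to 136365433, plus strand, mm9), a stress protein of many tissues that binds actin filaments, had 3 low mutant libraries as well. It stood at 64.4, 61.8, 79.2 and 109.2 CPM in mutant and at 109.4, 98.0, 82.5 and 85.7 in wild type. Those 3 mutant libraries lay below all wild-type libraries and mutant library 4 lay at the level of the highest wild type, wild-type library 1. Its log2 fold change was -0.26 ± 0.171 (SE; 95% interval -0.63 to 0.12; adjusted p = 0.641, edgeR).

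Hspb7 and Hspb8 showed means close to equal between the groups. Hspb7 (ENSMUSG00000006221, chromosome 4, 140976694 to 140981226, plus strand, mm9), which binds filamin C and is needed in mouse heart development, stood at 269, 255, 273 and 373 CPM in mutant and at 310, 332, 272 and 230 in wild type. Mutant library 4 was the highest of all 8 libraries and wild-type library 4 the lowest, so the groups overlapped widely. Its log2 fold change of 0.03 ± 0.142 (SE) had a 95% interval of -0.28 to 0.34, which corresponds to 0.826-fold to 1.27-fold (adjusted p = 0.962, edgeR).

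Hspb8 (ENSMUSG00000041548, chromosome 5, 116858500 to 116872873, minus strand, mm9), which pairs with BAG3 to route damaged filamin to autophagy, stood at 53.2, 43.9, 54.3 and 62.3 CPM in mutant and at 67.0, 66.5, 44.4 and 39.9 in wild type. The wild-type libraries of lane 1 lay above all mutants, while wild-type library 4 was the lowest of all and wild-type library 3 lay just above mutant library 2. A log2 fold change of -0.03 ± 0.175 (SE; 95% interval -0.41 to 0.35; adjusted p = 0.973, edgeR) resulted, and its sign turned with library size alone as scaling.

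Hspb6 (ENSMUSG00000036854, chromosome 7, 31337197 to 31340462, plus strand, mm9), also called Hsp20, is linked to smooth muscle relaxation and cardiac protection. It was scarce and even, at 8.0, 7.12, 8.64 and 7.99 CPM in mutant and 7.05, 7.01, 7.29 and 7.24 in wild type. Mutant libraries 1, 3 and 4 lay above all wild types and mutant library 2 lay among them. On the log2 scale the fold change was 0.15 ± 0.162 (SE; 95% interval -0.20 to 0.50; adjusted p = 0.797, edgeR), on 296 reads in mutant and 233 in wild type. The gene overlaps BC053749 and Lin37 on the other strand at its ends, and no source at hand says whether counting used strand, so part of its reads cannot be assigned with certainty.

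Neither myosin chaperone passed the test. Unc45b (ENSMUSG00000018845, chromosome 11, 82724052 to 82756905, plus strand, mm9) stood at 88.4, 118.3, 91.9 and 110.2 CPM in mutant and at 103.8, 143.9, 130.2 and 93.3 in wild type. Mutant libraries 1 and 3 lay below all wild types and the other mutants lay within their range. Its log2 fold change was -0.20 ± 0.142 (SE; 95% interval -0.51 to 0.10; adjusted p = 0.654, edgeR), and the value was below 0 under all 22 alternatives, though it was -0.098 without wild-type library 2. A pair of genes overlaps it on the other strand with 31 and 29 reads in all, against 7561 for Unc45b.

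Unc45a (ENSMUSG00000030533, chromosome 7, 87470178 to 87485891, minus strand, mm9), which serves myosins outside the sarcomere, stood at 15.5, 17.5, 16.1 and 10.5 CPM in mutant and at 13.1, 9.07, 13.6 and 15.3 in wild type. Mutant libraries 1, 2 and 3 lay above all wild types, while mutant library 4 and wild-type library 2 were the lowest of their groups. The log2 fold change was 0.22 ± 0.199 (SE; 95% interval -0.21 to 0.65; adjusted p = 0.748, edgeR). Per library the log2 ratio of Unc45b to Unc45a was 2.49, 2.74, 2.50 and 3.36 in mutant and 2.97, 3.95, 3.23 and 2.59 in wild type, a difference of -0.41 within the spread (exact permutation p = 0.314, two-sided, and 0.314 adjusted over 2 ratios). Unc45a was the 1 member with an exon test score above 0 in the authors' deposited table, ranking 152 of 605 such genes, with a log2 ratio of 1.57 at the exon that changed most. The scale of that score is not stated, and the exon is not named in the table.

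The lanes gave different values for the small heat shock genes other than Hspb6. In lane 1 alone, with 2 libraries per group, 4 of 9 passed, all lower in mutant, where 5.63% of all tested genes passed. Hspb3 was at -1.85 (adjusted p = 0.0159, edgeR), Hspb2 at -1.53 (0.00120), Cryab at -0.74 (0.00676) and Hspb1 at -0.72 (0.00991) on the log2 scale. In lane 2 alone 0 of 9 passed, where 0.786% of all genes did, with 1 member, higher in mutant, at an unadjusted p under 0.05, where 9.32% of all genes were, and the log2 fold changes of the same genes were -0.43, -0.06, 0.07 and 0.16. For Hspb7 the values were -0.29 in lane 1 against 0.36 in lane 2, and for Hspb8 -0.46 against 0.46. Unc45b was at -0.26 and -0.15 and Hspb6 at 0.10 and 0.19, while Unc45a was at 0.56 and -0.13.

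The difference between lanes was itself tested. By edgeR's test of group by lane, 6 of 9 members had an unadjusted p under 0.05, where 16.6% of all tested genes did, and 0 of 9 passed after adjustment, where 0.00678% did. Hspb2 came nearest, with a difference of 1.48 between lanes on the log2 scale (adjusted p = 0.0501, edgeR), followed by Cryab at 0.81 (0.0580), Hspb8 at 0.93 (0.0678) and Hspb1 at 0.88 (0.0796). Hspb7 stood at 0.66 (0.164) and Hspb3 at 1.43 (0.229). Without wild-type library 2 and mutant library 4, a choice made after seeing the data, 4 of 9 had an unadjusted p under 0.05, where 7.7% of all genes did. Hspb2 then stood at 1.15 (0.318), Hspb8 at 0.83 (0.429), Cryab at 0.74 (0.322), Hspb1 at 0.71 (0.379), Hspb3 at 0.52 (0.912) and Hspb7 at 0.37 (0.736).

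**Figure D3:**
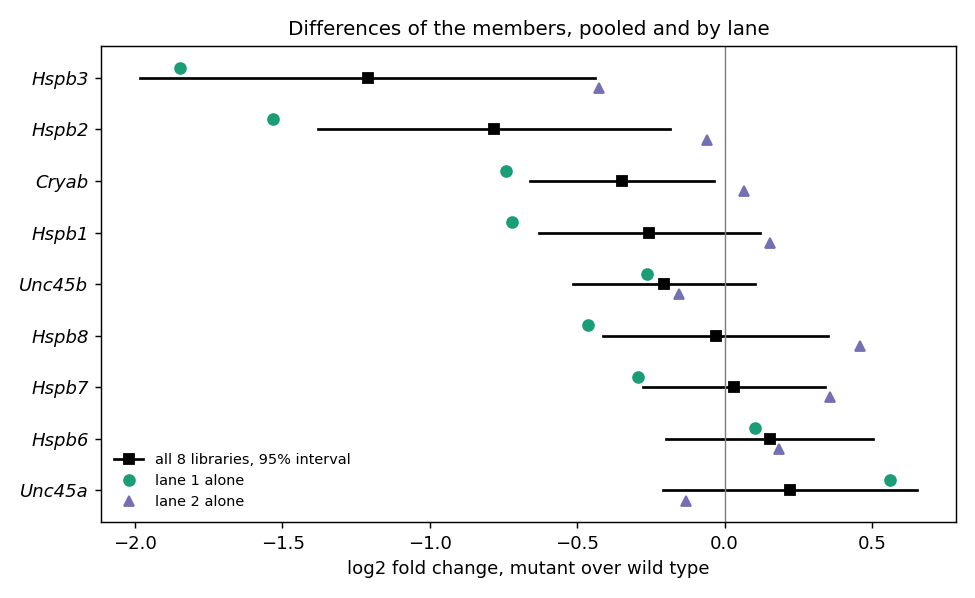
Log2 fold change of mutant over wild type for each gene, with squares and bars for all 8 libraries and the 95% interval, circles for lane 1 alone and triangles for lane 2 alone. Hspb3, Hspb2, Cryab and Hspb1 lie further below 0 in lane 1, at -1.85 to -0.72, than in lane 2, at -0.43 to 0.16.

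Chamber myocardium genes varied within and between the groups beside these values. Their list, which holds natriuretic peptides, ventricular light chains and chamber connexin, had a median centred log2 CPM of -1.05, -0.99, -0.79 and 0.86 in the mutants, in replicate order, and of 0.43, 1.2, -0.40 and 0.12 in the wild types. Its summed level ran from 416 to 1231 CPM in mutant and from 979 to 1913 CPM in wild type. Of the 8 chamber genes 1, the light chain Myl3, was lower at -1.56 (adjusted p = 0.0325, edgeR), where 0.942% of all tested genes were. In the list 6 values lay below 0 and 2 above. An unadjusted p under 0.05 was held by 2 of the 8, where 11.4% of all tested genes had one. Mutant library 4, the highest mutant in this list, was also the highest mutant for 6 of the 9 genes, all but Hspb6, Unc45a and Unc45b. Wild-type library 2, the highest wild type in this list, was the highest for 5, namely Hspb2, Hspb3, Hspb7, Cryab and Unc45b, and the lowest for Hspb6 and Unc45a.

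With the chamber level as a covariate 0 of 9 passed, where 1.9% of all genes did, and 3 of 9 had an unadjusted p under 0.05, 2 lower and 1 higher, where 11.5% of all genes did. The log2 fold change was then -0.67 ± 0.279 (SE) for Hspb3, -0.39 ± 0.156 for Hspb2, -0.15 ± 0.125 for Cryab and -0.02 ± 0.114 for Hspb1 (adjusted p = 0.352, 0.328, 0.760 and 0.978, edgeR). Hspb7 stood at 0.24 ± 0.104 (adjusted p = 0.394, edgeR). Because 3 mutant libraries were the lowest of all in the chamber list, the covariate and the genotype are partly confounded. Without wild-type library 2 and mutant library 4 the values were -1.19 for Hspb3, -0.87 for Hspb2, -0.44 for Hspb1 and -0.31 for Cryab (adjusted p = 0.0773, 0.110, 0.134 and 0.362, edgeR). The other members then lay at 0.14 for Hspb6, -0.026 for Hspb7, -0.0061 for Hspb8, 0.23 for Unc45a and -0.13 for Unc45b.

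Markers of other cell types were read beside these values. Of 5 epicardial markers 1 was called higher, Aldh1a2 at 1.25 on the log2 scale (adjusted p = 0.0361, edgeR), where 0.562% of all tested genes were. All 5 lay above 0, and 4 had an unadjusted p under 0.05, where 11.4% of all tested genes did. In 3 of 5 the groups were free of overlap, against 6.72% of all tested genes. The epicardial list, with Upk3b at the highest CPM, summed to 189 to 255 CPM in mutant and 105 to 195 CPM in wild type. Of 5 endothelial markers 1 was higher, Tek at 0.74 (adjusted p = 0.00130, edgeR), where 0.562% of all tested genes were. Tek was also the 1 endothelial marker with an unadjusted p under 0.05, where 11.4% of all tested genes had one. In 1 of the 5 the groups were free of overlap, against 6.72% of all tested genes. The endothelial list, led by Cdh5, had sums of 467 to 626 CPM in mutant and 359 to 466 CPM in wild type. Hepatic markers summed to 11.7 to 60.1 CPM in mutant and to 1.91 to 10.4 CPM in wild type with no overlap, though 0 of 3 tested genes passed, with Afp at 3.20 on the log2 scale (adjusted p = 0.178, edgeR). Erythroid markers, led by Hba-x, summed to 1349 to 7236 CPM in mutant and 2836 to 10865 CPM in wild type, and 0 of 5 passed. Smooth muscle markers, led by Acta2, of which 0 of 5 passed, summed to 2253 to 3364 CPM in mutant and 2687 to 3476 CPM in wild type. The cushion list, led by Postn, ran from 553 to 885 CPM in mutant and from 329.5 to 1062 CPM in wild type, the leukocyte list, led by Laptm5, from 4.83 to 9.19 and from 5.47 to 20.6 CPM, and the neural list, led by Tubb3, from 21.4 to 34.5 and from 22.4 to 29.9 CPM, with 0 genes called in each. The part of these cell types in the members' values was not tested.

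**Figure D4:**
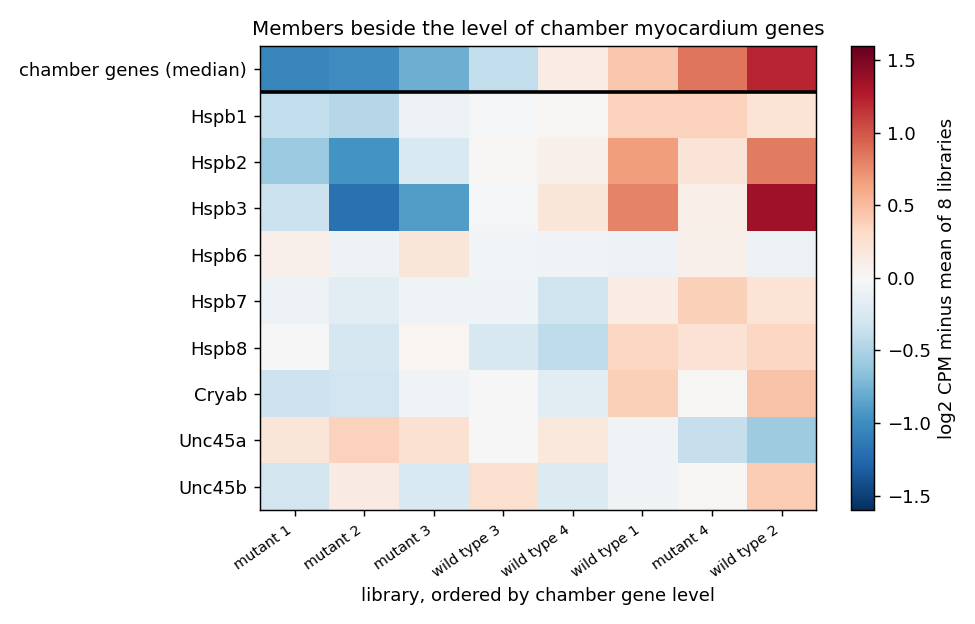
Log2 CPM of each gene minus its mean over 8 libraries, in colour, with libraries ordered from left to right by the median level of 8 chamber genes in the top row. Mutant libraries 1, 2 and 3 at the left, with chamber levels of -1.05 to -0.79, are low in Hspb2 and Hspb3, and wild-type library 2 at the right is high in both.

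Other chaperones were looked at in 3 lists that share clients or partners with the small heat shock proteins. Of 39 tested genes 0 passed in either direction by edgeR, where 1.5% of all tested genes did. An unadjusted p under 0.05 was held by 8 of the 39, where 11.4% of all tested genes had one. Heat shock factors and inducible targets held 10 tested genes with a median of 0.03, with the constitutive Hsp70 Hspa8, the gene with the highest CPM over all libraries, at 0.19 (adjusted p = 0.535, edgeR). The BAG and selective autophagy list held 13 tested genes with a median of 0.13, with 11 values above 0, and its gene with the highest CPM, the Hsp110 relative Hspa4, stood at 0.08 (adjusted p = 0.83, edgeR). BAG3, the partner of Hspb8, is named here after its values were seen. Its transcript stood at 76.4 ± 4.03 CPM in the mutants against 84.3 ± 14.5 CPM in the wild types (SD, n = 4), or -0.14 on the log2 scale (adjusted p = 0.715, edgeR). Of 4 further genes listed beside the members, 1 was tested, Hspb11, at -0.14 (adjusted p = 0.841, edgeR). Cryaa had 0 reads in every library, and Hspb9 and Odf1 did not pass the filter on low counts.

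The Hsp90 and myosin folding list held 16 tested genes with a median of -0.0077. The gene with the highest CPM over all 8 libraries, the endoplasmic reticulum form Hsp90b1, stood at 0.27 (adjusted p = 0.554, edgeR). Smyd1, a muscle methyltransferase that works with UNC45 and Hsp90 on myosin in zebrafish, is named here after its values were seen. It stood at 462 ± 40.7 CPM in the mutants against 659 ± 127.5 CPM in the wild types (SD, n = 4), with no overlap between the groups, and its log2 fold change of -0.51 ± 0.132 (SE) did not pass (adjusted p = 0.0879, edgeR). It was 1 of 4 genes of the list with an unadjusted p under 0.05, where 11.4% of all tested genes had one. The others were Dnaja4 at -0.83, the methyltransferase Smyd2 at -0.35 and the Hsp90 cochaperone Fkbp4 at 0.21. For Fkbp4 mutant lay above wild type with no overlap. In all, 2 of the 16 genes had no overlap, against 6.72% of all tested genes. None of the 4 passed after adjustment, and Dnaja4, Smyd2 and Fkbp4 were likewise named after their values were seen.

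**Figure D5:**
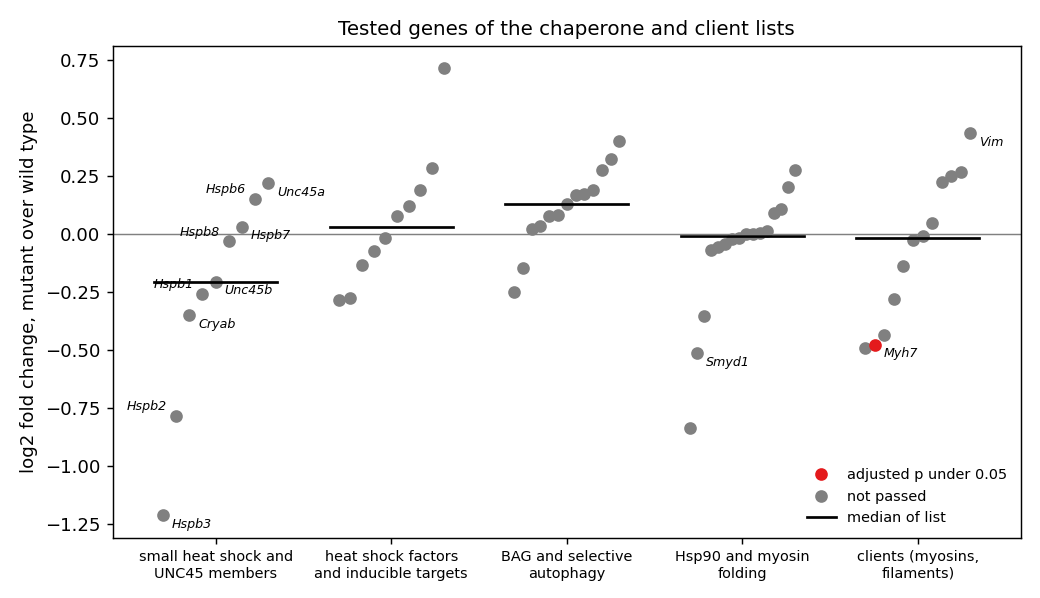
Log2 fold change of mutant over wild type for every tested gene of 5 lists, with the median of each list as a line and genes with an adjusted p under 0.05 in red. Of the chaperone lists none holds a called gene, and Myh7 at -0.48 is the 1 called gene among the clients.

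Clients of these chaperones were followed too. Of 12 tested myosins and filament proteins 1 was lower, the beta myosin heavy chain Myh7, where 0.942% of all tested genes were. Myh7 stood at -0.48 ± 0.0989 (SE; adjusted p = 0.0325, edgeR), from 3898 ± 313 CPM in wild type to 2804 ± 72.9 in mutant (SD, n = 4). An unadjusted p under 0.05 was held by 4 of the 12, where 11.4% of all tested genes had one. In 3 of the 12 the groups were free of overlap, against 6.72% of all tested genes. Those were Myh7 and Ttn, lower in mutant, and Vim, higher in mutant and named after its values were seen. The client with the highest CPM, not scaled for its great length, was titin (Ttn), which stood at -0.43 (adjusted p = 0.139, edgeR). Chosen after their values were seen, desmin (Des), the filament that Cryab binds, was at -0.28 ± 0.203 (SE; adjusted p = 0.675) and filamin C (Flnc), the client of Hspb7 and Hspb8, at -0.14 ± 0.112 (SE; adjusted p = 0.718, edgeR). The list's median was -0.016.

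Genes with the most similar pattern over the 8 libraries were sought for Hspb3 and Hspb2, the members with the smallest p. For Hspb2 they were Akr1b10, an aldo-keto reductase, Uqcrq, a subunit of respiratory complex III, and Chchd10, a mitochondrial protein, with Pearson r of 0.992, 0.990 and 0.989. For Hspb3 they were AL928789.1, Mov10l1, a helicase, and Rtn4ip1, a mitochondrial reductase, with r of 0.993, 0.985 and 0.985. These are the highest of all tested genes outside the members with a mean log2 CPM above 1. They are given as a description over 8 libraries that were split over lanes and differed in depth.

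In the authors' deposited table Hspb2 and Hspb3 had false discovery rates of 6.58e-05 and 7.71e-04 from a negative binomial test, and the other 7 members had rates of 0.124 or more. A score at the 0.05 level or better was held by 1.73% of the 33495 genes. The authors' pooled FPKM, in the same deposited table, was 42.0 in mutant and 69.5 in wild type for Hspb2 and 9.07 and 20.2 for Hspb3. The modified log2 fold change deposited by the authors was 0.092 for Hspb2 and -0.12 for Hspb3, so for Hspb2 its sign was opposite to that of the authors' own pooled values.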

How the data were processed

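RNA was sequenced from 4 mutant and 4 wild-type outflow tracts. The deposited table gives raw counts, whole numbers that the authors made for each gene in each library. Alignment was with TopHat2 version 2.0.4 to mm9, per the submitters' processing notes. How reads were counted, whether strand was used and which annotation served are not stated in the sources at hand. Per the file headers, the authors also made normalized log2 values of each library, 1 pooled FPKM for each group and the modified log2 fold change of USeq. The authors' p-values and false discovery rates stand as a score of minus 10 times the log10. A deposited exon test score has no stated scale. The number of unmapped columns of sample values was 0.

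The tests used edgeR 4.0.16 under R 4.3.3: filterByExpr, TMM scaling, the robust quasi-likelihood test on group alone, two-sided, and Benjamini-Hochberg adjustment over 14757 genes at 0.05. The SE was the size of the log2 fold change over the square root of F. Intervals cover 95%. Log2 CPM used a prior count of 2. A count of 3 equalled 0.278 to 0.413 CPM, and without molecular identifiers this covers counting error only. Libraries of a group differed beyond sampling noise, by chi-square per degree of freedom between 5.77 and 20.7. Gene ratios had exact permutation tests. DESeq2 1.42.0 and limma 3.58.1 served as alternatives, beside other scalings and filters, a replicate block, lane, the chamber level and left-out libraries. The scripts were tested on simulated data.

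The members and lists were chosen with earlier results of these data known. Beside the members, the text names called genes of each list, its gene with the highest mean CPM over all libraries, marker genes at or near 0, and the 3 genes most like the 2 members with the smallest p. Others are marked where they appear. The symbols Hspa1b and Bag6 were not matched. Tables and figures were made in Python 3.11.15 (pandas 2.3.3; scipy 1.17.1; matplotlib 3.10.9).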

Additional observations from a re-analysis of the deposited data

How the results depend on the processing

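Over all genes the 222 calls became 430 with DESeq2, 76 with the replicate block, 836 and 119 in lane 1 and lane 2 alone, and 95 when both libraries low in Y-linked reads were dropped. Leaving out 1 library gave 110 to 231, with 112, 136 and 110 without mutant libraries 1, 2 and 3 and 145 without wild-type library 1. Calls among the 9 members became 1 with DESeq2 and 4 in lane 1 alone, and were 0 under the other 20 alternatives, the replicate block included (0 to 0 when 1 library was left out). Hspb8 turned above 0 with library size alone (0.025), with the chamber level as a covariate (0.20) and in lane 2 alone (0.46). Unc45a turned below 0 with the covariate (-0.093) and in lane 2 (-0.13), and Hspb1 (0.16) and Cryab (0.066) turned above 0 in lane 2. Hspb7 turned below 0 in lane 1 alone (-0.29), without the libraries low in Y-linked reads (-0.021) and without wild-type library 2 and mutant library 4 (-0.026). With 1 library left out Hspb7 ran from -0.11 to 0.11, Hspb8 from -0.15 to 0.085, Hspb3 from -1.50 to -0.90, Hspb2 from -1.02 to -0.63, Cryab from -0.45 to -0.25, Hspb1 from -0.46 (without mutant library 4) to -0.16 (without mutant library 2), Hspb6 from 0.10 to 0.20, Unc45b from -0.30 to -0.098 and Unc45a from 0.086 to 0.36, with both ends nearest 0 of the last pair reached without wild-type library 2. The difference in the ratio of Unc45b to Unc45a ran from -0.61 to -0.16, the latter without wild-type library 2, and that of Cryab to Hspb2 from 0.33 to 0.61. With 1 library left out no ratio can pass, and the lowest exact permutation p (two-sided) was 0.0571. Without wild-type library 2 and mutant library 4, added after seeing the data, the differences in these ratios were -0.36 and 0.56, where 3 libraries a group cannot pass either. The cause was not tested. With the group means taken out of the log2 CPM, same-numbered samples correlated at -0.050, -0.21, 0.22 and -0.29. Such values cannot decide whether the numbers pair the samples, since same-numbered samples also share a lane.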

Other observations

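A false discovery rate at the 0.05 level or better was held by 579 genes of the authors' deposited table. For 134 of them (23.1%), as for Hspb2, the modified log2 fold change and the pooled FPKM of that table differed in direction.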
